A study of Mus musculus with 9 samples.

Results

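Transcripts of 10 genes of the mTORC1 and S6 kinase pathway were followed in mouse muscle: Mtor, Rptor, Rps6kb1, Eif4ebp1, Tsc1, Tsc2, Rheb, Akt1, Ddit4 and Deptor. They were chosen by symbol, with no measured value in the rule, and all 10 were found among the 13179 genes of the deposited table and passed the filter on low values. RNA came from the gastrocnemius, a calf muscle, of mice fed a high-fat diet for 6 weeks, with 3 libraries in each of 3 groups. The control group is labelled only as control. The p38α KO group carries the genotype label p38alphaMCK-KO and the p38α/γ KO group the label p38alpha/gammaMCK-KO. MCK is the usual abbreviation of muscle creatine kinase, whose promoter is widely used to drive Cre in muscle fibres, but the labels describe neither the alleles nor the Cre, and give no age, sex or strain. The high-fat diet is shared by all groups, and no group on another diet is analysed here. The labels number the libraries within a group without saying whether they are separate animals, and p-values therefore measure the spread between these libraries, which may be technical. The study named 3 contrasts: each knockout against control, and the knockouts against each other.

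The mTOR complex 1 (mTORC1) joins growth factor, energy and amino acid signals to protein synthesis. Its kinase mTOR, held to substrates by raptor and restrained by DEPTOR, is switched on at the lysosome by the small GTPase Rheb, and the TSC1/TSC2 complex keeps Rheb off. Akt inactivates TSC2, DDIT4 (also called REDD1) restores its brake, and the active kinase phosphorylates S6 kinase 1 (Rps6kb1) and the translation inhibitor 4E-BP1 (Eif4ebp1); in muscle this pathway is known for its part in fibre growth. These steps act largely through phosphorylation and protein contact, and only RNA was measured here.

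The libraries held an inferred 23.8 to 27.9 M reads. Mapk14, which encodes p38α, measured 149.5 ± 7.01 in the control, 43.2 ± 2.63 in the p38α KO, and 44.8 ± 9.03 for the p38α/γ KO (normalised value, mean ± SD, n = 3). Mapk12, which encodes p38γ, measured 143.3 ± 7.74, 101.5 ± 4.46 and 33.2 ± 2.18 in the same order. By limma, Mapk12 was called lower than control in the p38α KO as well (log2 −0.49, adjusted p = 0.0060). Its fall was larger in the p38α/γ KO (log2 −2.08, adjusted p = 9.84e-07). Library 1 of the p38α KO stood apart, with correlations across genes of 0.976 and 0.961 with the other libraries of its group, against 0.987 to 0.993 for every other pair within a group. Myofibre markers were abundant in all libraries, with 8 genes such as Ckm and Acta1 summing to between 142200 and 155400 in the control, 85370 and 125400 in the p38α KO and 105500 and 109900 in the p38α/γ KO. The summed level of 12 macrophage markers lay between 124.7 and 166.6, between 240.0 and 542.1, and between 317.0 and 514.9 in the same order. In the p38α KO and the p38α/γ KO, 10 and 12 of the 12 were called higher, against 7.32% and 11.2% of all genes. Library 1 of the p38α KO had both the lowest myofibre sum and the highest macrophage sum of the 9 libraries. Among the 8 myofibre markers, Acta1 alone was called lower in the p38α KO, and 0 were called for the p38α/γ KO. Against control, 6 of the 8 had negative differences in each comparison. Myh1 (log2 0.09 and 0.65) and Mb (0.04 and 0.46) had positive ones, so the lower sums do not stand for every marker. Of 8 fibro-adipogenic progenitor markers, 1 and 5 were called higher in the p38α KO and the p38α/γ KO, against the same 7.32% and 11.2% of all genes. Their sums were 1680 to 2178 in the control, then 1910 to 2927 and 2516 to 3472. None of the markers of these lists was at 0 reads in any library. The part of these shifts in the results below was not tested. In whole muscle fewer fibres, less RNA per fibre and other changes within the fibres cannot be told apart.

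In the p38α/γ KO, 5 of the 10 genes fell, namely Mtor, Rps6kb1, Tsc1, Tsc2 and Rheb, where 14.4% of all tested genes were called lower. In the p38α KO, Rps6kb1 and Tsc2 fell (10.4% of all genes were called lower) and Deptor rose (7.32% were called higher). The promoters of the 5 genes that fell in the p38α/γ KO are printed from RefSeq (GRCm38.p6), because these are the members that moved together. Each runs 5′ to 3′ along the gene's own strand, from 250 bases before the annotated start to the 30th transcribed base. Capitals mark matches, on either strand, to an ETS-type motif (CCGGAAG) or to the E-box CACGTG.
Rps6kb1: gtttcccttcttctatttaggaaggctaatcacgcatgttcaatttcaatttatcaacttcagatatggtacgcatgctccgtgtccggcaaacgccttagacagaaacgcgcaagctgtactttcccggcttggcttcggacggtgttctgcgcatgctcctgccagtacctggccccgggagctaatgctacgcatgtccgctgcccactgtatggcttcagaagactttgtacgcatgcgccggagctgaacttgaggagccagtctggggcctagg
Tsc2: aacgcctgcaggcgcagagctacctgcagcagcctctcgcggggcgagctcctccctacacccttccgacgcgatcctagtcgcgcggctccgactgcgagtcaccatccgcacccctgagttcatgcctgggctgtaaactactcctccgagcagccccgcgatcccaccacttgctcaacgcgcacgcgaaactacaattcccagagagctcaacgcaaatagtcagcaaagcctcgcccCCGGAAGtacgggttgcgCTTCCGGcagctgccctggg
Tsc1: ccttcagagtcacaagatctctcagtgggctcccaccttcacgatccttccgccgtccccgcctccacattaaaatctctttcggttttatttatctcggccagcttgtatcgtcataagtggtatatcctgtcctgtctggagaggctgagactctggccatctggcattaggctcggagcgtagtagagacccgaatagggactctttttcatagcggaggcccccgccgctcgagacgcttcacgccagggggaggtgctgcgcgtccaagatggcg
Mtor: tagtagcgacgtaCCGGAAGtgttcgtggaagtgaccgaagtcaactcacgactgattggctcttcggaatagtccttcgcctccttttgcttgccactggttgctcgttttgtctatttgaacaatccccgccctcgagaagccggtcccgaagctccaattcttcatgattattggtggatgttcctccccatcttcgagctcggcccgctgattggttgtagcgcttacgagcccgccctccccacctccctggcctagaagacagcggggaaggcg
Rheb: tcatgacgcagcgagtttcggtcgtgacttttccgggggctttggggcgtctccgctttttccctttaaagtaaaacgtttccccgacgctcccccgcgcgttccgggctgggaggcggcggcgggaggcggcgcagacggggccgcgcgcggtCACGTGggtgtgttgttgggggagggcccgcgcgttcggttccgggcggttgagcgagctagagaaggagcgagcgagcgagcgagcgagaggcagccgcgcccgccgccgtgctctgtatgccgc
The stretches lie at chr11:86544778-86545057, minus strand (Rps6kb1), chr17:24632598-24632877, minus strand (Tsc2), chr2:28640983-28641262, plus strand (Tsc1), chr4:148448332-148448611, plus strand (Mtor) and chr5:24842332-24842611, minus strand (Rheb). A promoter entry was found for 8 of the 10 genes; Eif4ebp1 and Deptor had none. The search covered 300 bases a gene, 250 before and 50 from the start, with 10 motifs chosen after the expression values were seen.

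Tsc2 held the ETS motif on both sides of its start, the second time on the other strand, with first bases at −8 and 11, counted with the first transcribed base as 1. Mtor held it at −237, and these were 2 of the 8 promoters, against 8.86% of all 32851 promoters of the same length. Rheb alone held CACGTG, at −96 from the RefSeq start and so within the GENCODE gene (7.15% of all promoters). The Sp1-type motif GGGCGG was present in 3 of the 8, in Mtor, Rheb and Ddit4 (35.7% of all), the FoxO motif GTAAACA in Akt1 alone (3.65%) and the MyoD-type E-box CAGCTG in Tsc2 alone, at 18 (16.3%). No match was found among the 8 for the CRE TGACGTCA (1.79% of all), the AP-1 motif TGACTCA (5.20%), the ERR motif TCAAGGTCA (0.423%), the CARE TGATGNAA (3.97%) or the MEF2 motif (0.557%). Rps6kb1, Tsc1 and Rptor matched none of the 10. No motif was therefore common to the 5 genes that fell, and a match or its lack is only a description of the letters in these windows. GC content was 53.3% in Rps6kb1, 56.7% in Mtor, 57.3% in Tsc1, 65.0% in Tsc2 and 70.0% in Rheb, and averaged 53.8% over all promoters.

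**Figure D1:**
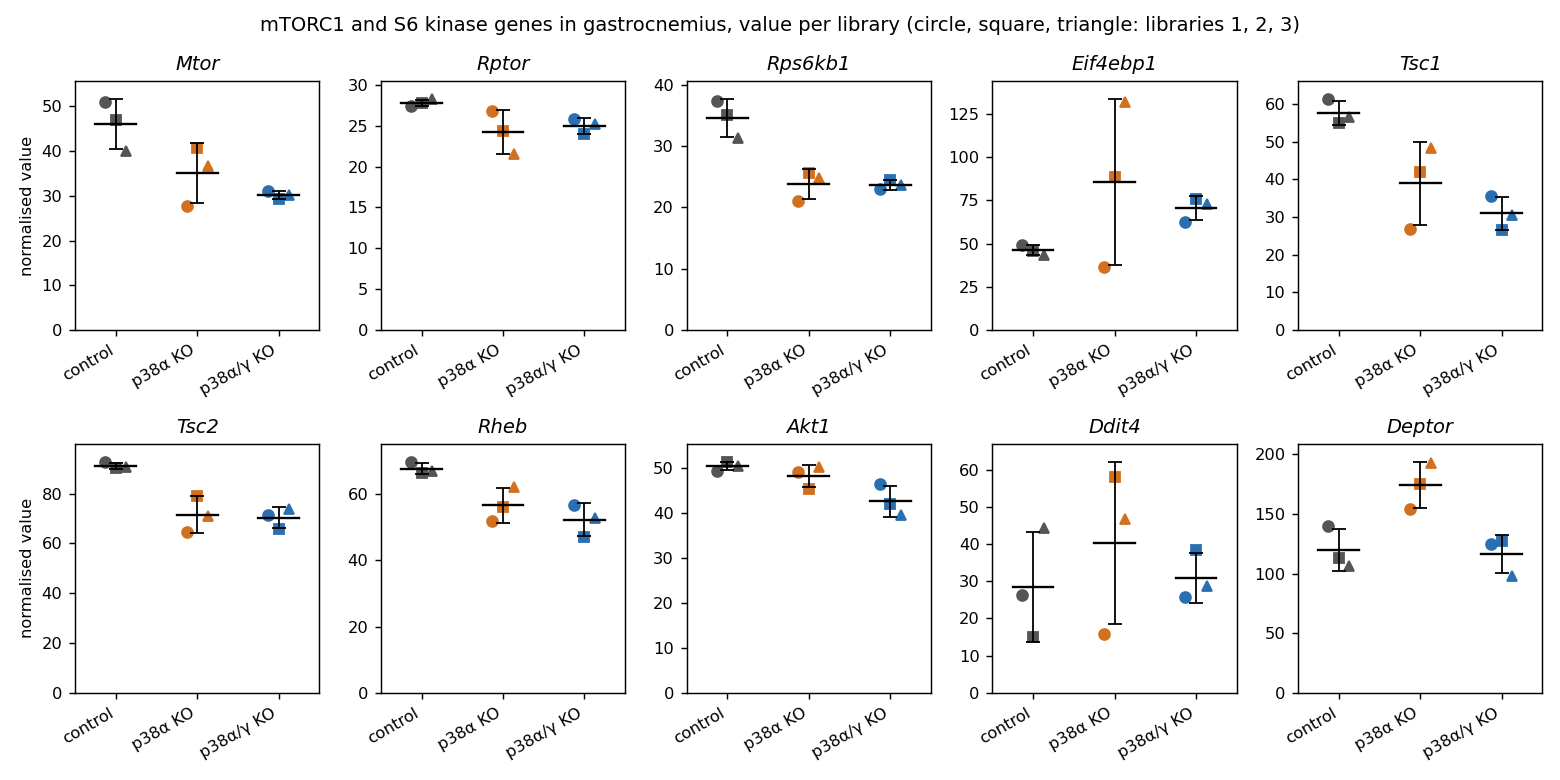
Normalised value (vertical axes, from 0) of each of the 10 genes in the 9 libraries; circles, squares and triangles are libraries 1, 2 and 3, the long bar is the group mean and the error bar the SD (n = 3). Rps6kb1 and Tsc2 are lower in all knockout libraries than in any control, whereas Eif4ebp1 in the p38α KO runs from 36.3 to 132.

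The main output kinase of the pathway fell in both knockouts by nearly the same amount. Rps6kb1 (ENSMUSG00000020516; GRCm38 chromosome 11, 86498871 to 86544805, minus strand), which encodes S6 kinase 1, measured 37.3, 35.1 and 31.3 in the control libraries 1, 2 and 3, then 21.1, 25.7 and 24.9 in the p38α KO and 23.0, 24.5 and 23.6 in the p38α/γ KO. Every knockout library was below every control. It fell 1.43-fold in the p38α KO (log2 −0.52, SE 0.102, limma adjusted p = 0.0108). The fall was 1.44-fold in the p38α/γ KO (log2 −0.52, SE 0.102, adjusted p = 0.00947 by limma). Fold changes are of the value + 1, and calls are limma tests over 13137 genes at an adjusted p below 0.05. Of 18 alternative fits in each comparison, the p38α/γ KO call was kept in all (highest adjusted p = 0.0450), and the p38α KO call was lost in 1, without control 1 (adjusted p = 0.0519). A two-sided exact permutation test of the 6 libraries gave p = 0.1 in both comparisons, the smallest that 3 against 3 allows. Rnft1, a neighbour that encodes a RING finger protein, lies on the opposite strand and shares 155 bases with the far end of Rps6kb1. It measured 33.4 ± 1.17, 18.9 ± 2.91 and 15.2 ± 3.23 and also fell (log2 −0.80 and −1.11, adjusted p = 0.00875 and 0.00316). The library kit is directional, but the strand setting of the counting is not given in the sources used here.

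The paralogue of that kinase did not follow it past the threshold. Rps6kb2, which encodes S6 kinase 2, measured 20.4 ± 0.0665 in the control, 19.6 ± 0.910 in the p38α KO, and 19.7 ± 2.24 for the p38α/γ KO. Its differences from control were log2 −0.06 (95% interval −0.27 to 0.16) and −0.05 (−0.27 to 0.16), with adjusted p of 0.717 and 0.701. The difference of its change from that of Rps6kb1 was not tested. Per kilobase of exon the 2 kinases were at similar levels in the control, 3.99 for Rps6kb1 and 3.95 for Rps6kb2, and at 2.74 and 3.81 in the p38α/γ KO. The paralogues given here and below were chosen after their values were seen, where they lay outside the naming rule.

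The other direct mTORC1 substrate had widely spread values in 1 group. Eif4ebp1 (chromosome 8, 27260329 to 27276674), which encodes the cap-binding inhibitor 4E-BP1, measured 49.4, 45.8 and 43.4 in the control, 36.3, 88.3 and 132 in the p38α KO, and 62.6, 75.6 and 72.9 in the p38α/γ KO. All 3 p38α/γ KO libraries were above every control, and in the p38α KO library 1 lay below the controls while the others lay above. Neither difference passed the test: log2 0.69 in the p38α KO (95% interval −0.10 to 1.49, adjusted p = 0.199) and 0.59 in the p38α/γ KO (−0.20 to 1.39, adjusted p = 0.233). Library 1 of the p38α KO decides both calls. Without it, Eif4ebp1 rose in both knockouts, by log2 1.21 in the single one (adjusted p = 0.00144) and log2 0.59 in the double one (adjusted p = 0.00740), since the fit shares 1 spread over all groups. The p38α/γ KO call was also made with its 6 libraries alone (adjusted p = 0.00122).

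Its paralogue Eif4ebp2, the 4E-BP gene with the highest level per kilobase here, fell in the single knockout. It measured 392.9 ± 14.6 in the control, 258.3 ± 50.3 in the p38α KO, and 315.4 ± 43.2 for the p38α/γ KO. The fall was 1.54-fold in the p38α KO (log2 −0.62, adjusted p = 0.0215), a call lost without any 1 of the controls (adjusted p up to 0.0809) and after quantile normalisation. The p38α/γ KO difference did not pass (log2 −0.32, 95% interval −0.66 to 0.01, adjusted p = 0.129). Per kilobase of exon Eif4ebp2 stood at 67.9, 44.7 and 54.5 in the 3 groups and Eif4ebp1 at 21.0, 38.9 and 32.0. Eif4ebp3 was low, at 2.05 ± 0.930, 3.10 ± 0.459 and 4.77 ± 2.49, and was not called.

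The 2 subunits of the TSC brake and its target Rheb had lower values in every knockout library than in any control. Tsc1 (chromosome 2, 28641228 to 28691167), whose product hamartin stabilises TSC2, measured 61.2, 54.9 and 56.6 in the control, 26.9, 41.8 and 48.3 in the p38α KO and 35.5, 26.7 and 30.6 in the p38α/γ KO. No knockout library reached the control range. Tsc1 fell 1.84-fold in the p38α/γ KO, the largest fall among the 10 genes (log2 −0.88, SE 0.190, limma adjusted p = 0.0131). That call was lost without control 1 or p38α/γ KO 2 (adjusted p up to 0.0604). In the p38α KO the difference of log2 −0.59 (95% interval −1.01 to −0.17) did not pass (adjusted p = 0.0584). It did pass without p38α KO 3, the library nearest to the controls (adjusted p = 0.0160).

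Tsc2 (chromosome 17, 24595816 to 24632630), which encodes the GTPase-activating subunit tuberin, measured 92.6, 90.4 and 90.6 in the control, 64.5, 79.1 and 70.9 in the p38α KO and 71.2, 65.7 and 73.9 in the p38α/γ KO. The groups did not overlap. It fell 1.28-fold in the p38α KO (log2 −0.35, SE 0.0908, limma adjusted p = 0.0279) and 1.29-fold in the p38α/γ KO (log2 −0.37, adjusted p = 0.0192). These calls were close to the threshold. The first was lost without any 1 of the 3 controls (adjusted p up to 0.0936), after quantile normalisation (0.0909) and with the 6 libraries alone (0.0608). The second was lost without any 1 control, p38α/γ KO 2 or p38α/γ KO 3 (up to 0.0827) and after quantile normalisation (0.0585). Pkd1, the polycystin gene that meets the far end of Tsc2 on the opposite strand over 693 bases, was not called (log2 −0.15, adjusted p = 0.376, and 0.18, adjusted p = 0.266).

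Rheb (chromosome 5, 24802823 to 24842624), the GTPase that activates the kinase, measured 69.6, 66.4 and 67.1 in the control, 51.7, 56.0 and 62.3 in the p38α KO and 56.8, 47.0 and 52.8 in the p38α/γ KO. It was lower than the controls in all 6 knockout libraries. It fell 1.29-fold in the p38α/γ KO (log2 −0.37, SE 0.0974, limma adjusted p = 0.0242), a call lost without any 1 control, p38α/γ KO 2 or p38α/γ KO 3 (adjusted p up to 0.0985). In the p38α KO the difference was log2 −0.26 (95% interval −0.47 to −0.04), which did not pass (adjusted p = 0.0951). It passed without p38α KO 3 (adjusted p = 0.0398). Rhebl1, the Rheb paralogue, was at 2.09 ± 0.517, 3.07 ± 0.815 and 3.04 ± 0.554 and was not called (log2 0.39 in both, adjusted p = 0.178 and 0.147).

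Of the kinase complex, Mtor fell in the double knockout and Deptor rose in the single one, while Rptor was not called. Mtor (chromosome 4, 148448611 to 148557683) measured 51.0, 47.0 and 40.1 in the control, 27.7, 40.8 and 36.6 in the p38α KO and 31.1, 29.4 and 30.3 in the p38α/γ KO. The p38α/γ KO libraries lay together below all controls, while p38α KO 2 was above control 3. Mtor fell by 33.3% in the p38α/γ KO (log2 −0.58, SE 0.140, limma adjusted p = 0.0183). That call was lost without control 1, control 2, p38α/γ KO 2 or p38α/γ KO 3 (adjusted p up to 0.0734). The p38α KO difference was log2 −0.40 (95% interval −0.71 to −0.08) and did not pass (adjusted p = 0.0780). Rptor (chromosome 11, 119602905 to 119899576), the raptor subunit that recruits substrates, measured 27.4, 27.8 and 28.2, then 26.9, 24.4 and 21.5, then 25.9, 23.9 and 25.2. Its knockout values were all below the controls, but the differences of log2 −0.19 (95% interval −0.40 to 0.02, adjusted p = 0.174) and −0.15 (−0.36 to 0.06, adjusted p = 0.259) did not pass. Angptl7, a secreted-protein gene that lies inside Mtor on the opposite strand, was not called (adjusted p = 0.974 and 0.904).

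Deptor (chromosome 15, 55112317 to 55259271), the inhibitory subunit, was the 1 gene of the 10 called higher in a knockout with all 9 libraries in the fit. It measured 139.6, 113 and 106 in the control, 154.5, 175 and 193 in the p38α KO and 124, 127 and 98.1 in the p38α/γ KO. All p38α KO libraries were above the other 6. It rose 1.46-fold over control in the p38α KO (log2 0.54, SE 0.139, limma adjusted p = 0.0272). That call was lost without control 2 (0.0883), control 3 (0.108) or p38α KO 2 (0.0689). The p38α/γ KO differed from control by log2 −0.04 (95% interval −0.35 to 0.27, adjusted p = 0.860). The knockouts differed from each other by log2 0.58 (95% interval 0.27 to 0.89, unadjusted p = 0.00203), which did not pass after adjustment by limma over all genes (adjusted p = 0.148).

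Akt1 and Ddit4, the upstream inputs among the 10 genes, were not called. Akt1 (chromosome 12, 112653821 to 112674884), the kinase that inactivates TSC2, measured 49.5, 51.3 and 50.5 in the control, 49.1, 45.4 and 50.3 in the p38α KO and 46.4, 42.0 and 39.5 in the p38α/γ KO. All p38α/γ KO libraries were below every control, with a difference of log2 −0.24 (95% interval −0.43 to −0.05, adjusted p = 0.0632). It was called in that comparison without p38α KO 1 (0.0326), without p38α/γ KO 1 (0.0407) and with the 6 libraries alone (0.0305). In the p38α KO the difference was log2 −0.06 (−0.25 to 0.13, adjusted p = 0.631), with the opposite sign after quantile normalisation (0.01). Akt2, the insulin-responsive paralogue with the higher level in this muscle, measured 272.0 ± 7.10, 238.4 ± 38.2 and 207.8 ± 8.93. It fell in the p38α/γ KO (log2 −0.39, adjusted p = 0.0336; with the replicate number as a block 0.0532), a call kept without p38α KO 1 or p38α KO 3 and lost without any other library. It was not called in the p38α KO (adjusted p = 0.233).

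Ddit4 (chromosome 10, 59949669 to 59951834), a stress-induced activator of the TSC brake, was the most variable of the 10 genes within the control group. It measured 26.2, 14.9 and 44.3 in the control, 15.8, 58.0 and 46.8 in the p38α KO and 25.7, 38.5 and 28.7 in the p38α/γ KO. The groups overlapped throughout. The highest control was 2.97 times the lowest, so the intervals were wide: log2 0.43 (−0.63 to 1.48, adjusted p = 0.554) and 0.23 (−0.83 to 1.28, adjusted p = 0.742). A rise of the size seen for Deptor lies inside both intervals. Its paralogue Ddit4l, at 256.1 ± 30.7, 247.9 ± 37.9 and 268.9 ± 39.9, was not called either (log2 −0.05 and 0.07).

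**Figure D2:**
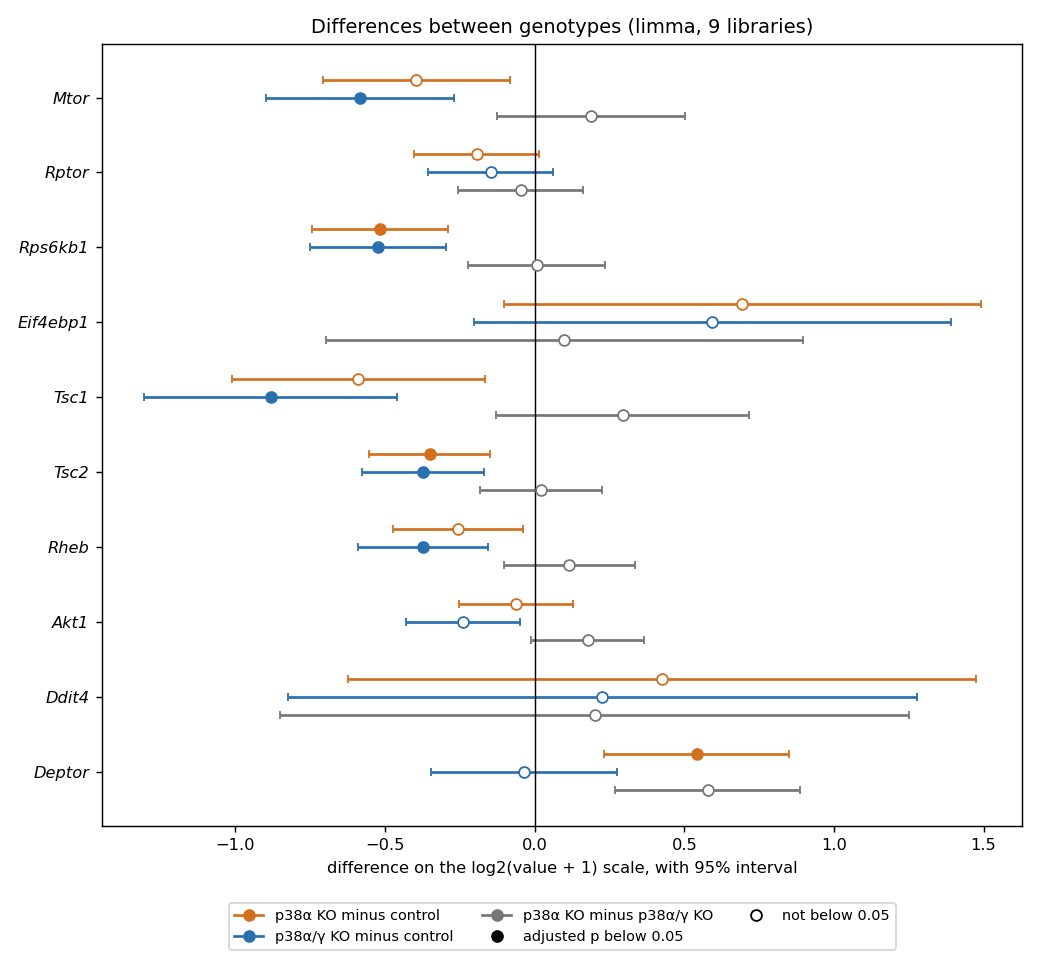
Difference between group means on the log2(value + 1) scale (horizontal axis) with 95% intervals for the 10 genes, from limma on 9 libraries; orange is p38α KO minus control, blue p38α/γ KO minus control, grey p38α KO minus p38α/γ KO, and filled points have an adjusted p below 0.05. Filled points are 3 orange, 5 blue and 0 grey.

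Across the 10 genes, 3 were called in the p38α KO, 1 higher and 2 lower. Of all tested genes 17.8% were called in that comparison, 7.32% higher and 10.4% lower. The groups did not overlap for 6 of the 10, against 38.6% of all genes. The p38α/γ KO gave 5 calls, 0 higher and 5 lower, against 25.6% of all genes called, 11.2% higher and 14.4% lower. Groups did not overlap there for 8 of the 10, against 55.0%. The median difference of the 10 genes was log2 −0.23 for the p38α KO and −0.31 for the p38α/γ KO, against medians over all tested genes of 0.01 and 0.02. Both comparisons use the same 3 control libraries, so their values stand side by side and are not independent. Control 1 had the highest value of its group for Mtor, Rps6kb1, Tsc1, Tsc2 and Rheb. Without it 1 gene was called in each comparison, Deptor in the p38α KO and Rps6kb1 in the p38α/γ KO. This was not particular to control 1, since 1 gene was also called in the p38α KO without control 2 or control 3. Over all genes the p38α KO calls fell from 2332 to 840, 981 and 801 without control 1, 2 and 3. Those of the p38α/γ KO fell from 3368 to 1094, 1634 and 1173.

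Between the knockouts, limma called 0 of the 10 genes, against 0.442% of all genes. Deptor was the 1 gene with an unadjusted p below 0.05, and the 1 gene whose groups did not overlap (14.3% of all genes). The genes called in both knockouts had differences near 0, Rps6kb1 of log2 0.01 (95% interval −0.22 to 0.23) and Tsc2 of 0.02 (−0.18 to 0.22). Tsc1 differed by log2 0.29 (−0.13 to 0.72) and Mtor by 0.19 (−0.12 to 0.50). This comparison depended on p38α KO 1, which had the lowest value of its group for Mtor, Rps6kb1, Eif4ebp1, Tsc1, Tsc2, Rheb, Ddit4 and Deptor. Without it 14.3% of all genes were called between the knockouts (7.77% of all genes higher in the p38α KO), and 3 of the 10 were called, all higher there: Eif4ebp1 (log2 0.61, adjusted p = 0.0289), Tsc1 (0.53, 0.0210) and Deptor (0.66, 0.0179).

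**Figure D3:**
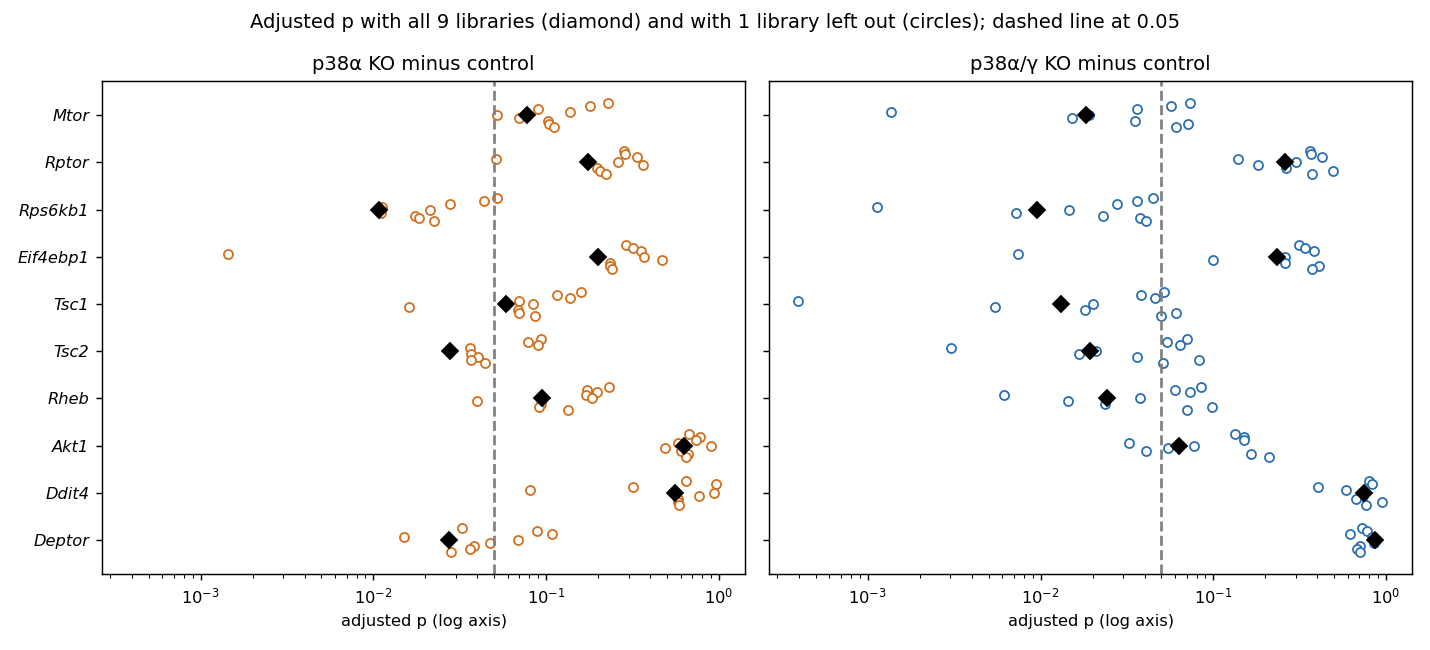
Adjusted p (log axis) of each gene with all 9 libraries (black diamond) and with each library left out in turn (open circles), for each knockout against control; the dashed line is at 0.05. The circles of Rps6kb1 stay left of the line in the p38α/γ KO, and those of Tsc2 and Rheb lie on both sides of it.

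By group mean, the order of transcript levels per kilobase of exon was led by Eif4ebp1 in all groups. In the control Eif4ebp1 stood at 21.0 ± 1.37, Ddit4 at 16.2 ± 8.44, Deptor at 13.5 ± 1.99 and Akt1 at 12.3 ± 0.226 (normalised value per kilobase, mean ± SD, n = 3), and neighbours in this run overlapped in their libraries. Tsc2 at 9.48 ± 0.125 and Rheb at 8.77 ± 0.218 followed without overlap with their neighbours. Tsc1 (4.86 ± 0.275), Mtor (4.55 ± 0.544) and Rps6kb1 (3.99 ± 0.352) overlapped one another in turn, and Rptor was lowest at 2.06 ± 0.0296. The first 6 places and the last were the same in both knockouts by group mean. In the p38α KO the libraries of Eif4ebp1 (16.55 to 60.0), Ddit4 (9.02 to 33.0) and Deptor (17.4 to 21.8) overlapped, so their order there is uncertain. Mtor, Tsc1 and Rps6kb1 held the places between, with Tsc1 at 3.29 ± 0.929 in the p38α KO, and 2.61 ± 0.374 for the p38α/γ KO, where Rps6kb1, at 2.74 ± 0.0892, ranked above it though their libraries overlapped. In all groups the transcript of the kinase was thus lower per kilobase than those of Tsc2, Rheb and Akt1. Exon lengths are unions over annotated transcripts, so these levels are approximate.

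The rest of the pathway was read from 92 further genes in 9 lists, of which 89 were tested (not Prr5l, Castor1 and Castor2). Genes given below only to complete the count of a list were named after their values were seen. In the p38α KO 3 were called higher and 10 lower (14.6%), and in the p38α/γ KO 8 higher and 18 lower (29.2%), near the 17.8% and 25.6% of all genes. After quantile normalisation these became 5 higher and 5 lower, and 9 higher and 11 lower. Leaving out 1 library moved the counts between 1 and 23 and between 4 and 43, with the fewest calls without control 3 in the first comparison and without p38α/γ KO 2 or 3 in the second. In the p38α KO the count was 4 without control 1 or control 2 and 8 without p38α/γ KO 1 or 3. Larger counts, 21 and 23, came without p38α KO 1 and p38α KO 3, and 6 were called with its 6 libraries alone. For the p38α/γ KO the counts were 6, 8 and 7 without control 1, 2 and 3, 43 without p38α KO 1, and 44 with its 6 libraries alone. With the replicate number as a block the p38α/γ KO count was 18, 6 higher and 12 lower. Between the knockouts limma called 0 of the 89, and 18 without p38α KO 1, where 14.3% of all genes were called.

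The largest fall among the 89 genes was in the AMPK list in each comparison with control. AMPK is the kinase that restrains mTORC1 when energy is short, through TSC2 and raptor. Prkab2, its β2 subunit and the main β form of muscle, measured 477.7, 438.7 and 460.7 in the control, 126.0, 213 and 244 in the p38α KO and 257.5, 217 and 227 in the p38α/γ KO. It fell 2.44-fold and 1.96-fold (log2 −1.29 and −0.97, limma adjusted p = 0.00463 and 0.0119). It was the 1 pathway gene whose p38α KO call was kept without each library in turn, and its p38α/γ KO call was lost without p38α/γ KO 2 (adjusted p = 0.0541). Prkaa2, the α2 catalytic subunit, fell 2.06-fold in the p38α/γ KO, from 265.8 ± 3.20 to 128.9 ± 16.6 (log2 −1.05, adjusted p = 0.0125; 0.0584 without p38α/γ KO 2). Prkag2, a γ subunit, rose there from 13.2 ± 1.77 to 21.8 ± 1.96 (log2 0.68, adjusted p = 0.00629), a call kept without each library. Of the 10 AMPK genes 1 was called, lower, in the p38α KO, where 7.32% of all genes were called higher and 10.4% lower. With both kinases targeted, 2 were called higher (Prkag2 and Prkag1) and 4 lower (Prkaa2, Prkab2, Prkag3 and Cab39), against 11.2% and 14.4% of all genes. Of these calls, Prkag1 and Cab39 were lost with the replicate number as a block (adjusted p = 0.0524 and 0.0678). With 1 library left out, Prkag3, Prkag1 and Cab39 lost their calls in 3, 6 and 7 of 9 fits.

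Of 28 tested amino acid sensing genes, 5 were called in the p38α KO (17.9%) and 6 in the double knockout (21.4%), against 17.8% and 25.6% of all genes. Rragd, a Rag GTPase that docks mTORC1 at the lysosome, measured 267.8, 268.5 and 269.5 in the control, 133, 186 and 193 in the p38α KO and 163, 136.0 and 139.0 in the p38α/γ KO. It fell 1.59-fold (log2 −0.67, limma adjusted p = 0.0125; 0.05003 without control 3) and 1.84-fold (log2 −0.88, adjusted p = 0.00512, kept without each library). Lamtor4, a Ragulator subunit, rose from 30.3 ± 2.03 to 44.6 ± 7.22 and 46.7 ± 7.04 (log2 0.53 and 0.60, adjusted p = 0.0280 and 0.0163). The first of these calls was lost without any 1 control and the second without control 1, control 2, p38α/γ KO 2 or p38α/γ KO 3. Lamtor2, another Ragulator subunit, rose in the p38α KO (log2 0.40, adjusted p = 0.0489, lost in 8 of 9 fits with 1 library left out and kept without p38α KO 3), and Fnip1, a folliculin partner, fell there (log2 −0.51, adjusted p = 0.0205, lost without any 1 control). Of the 13 Rag, Ragulator and folliculin genes 2 rose (Lamtor2 and Lamtor4) and 2 fell (Rragd and Fnip1) in the p38α KO, while 1 rose and 2 fell (Rragd and Rraga) in the p38α/γ KO. Among 15 tested genes of the GATOR and KICSTOR complexes and the amino acid sensors, 1 fell in the p38α KO (Mios), and in the double knockout 1 rose (Sesn3) and 2 fell (Mios and Wdr59). Mios lost its call in 8 of 9 fits with 1 library left out in the single knockout (adjusted p up to 0.141) and in 4 of 9 in the double (up to 0.0703). Sesn3 was near the threshold (limma adjusted p = 0.0491) and lost its call in 7 of 9 such fits (up to 0.140). Rraga lost its call in the double knockout in 5 of 9 (up to 0.0774). Wdr59 is a GATOR2 subunit (log2 −0.50, adjusted p = 0.0160, lost without control 1, control 3 or p38α/γ KO 3).

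Growth factor inputs gave 1 gene higher (Grb10) and 1 lower of 16 in the p38α KO, against 7.32% and 10.4% of all genes. In the double knockout 2 of the 16 were higher (Grb10 and Igf1) and 4 lower, against 11.2% and 14.4% of all genes. Akt2 and Pdpk1 were among those lower (with the block, Pdpk1 had an adjusted p of 0.0765). Grb10, an adaptor that dampens insulin receptor signalling, rose to 51.7 ± 6.21 in the p38α KO, against 29.1 ± 3.27 (log2 0.81, limma adjusted p = 0.0152, lost without control 1 or control 3). Its p38α/γ KO level was 44.3 ± 11.9 (log2 0.56, adjusted p = 0.0414; with the replicate number as a block 0.0538), a call kept without p38α KO 1, p38α KO 3 or p38α/γ KO 1 and lost without any other library. Igf1, the muscle growth factor, rose in the p38α/γ KO from 13.5 ± 2.85 to 25.4 ± 0.554 (log2 0.88, adjusted p = 0.0346), a call lost without control 1, control 3 or any 1 of the p38α/γ KO libraries. Macrophages and fibro-adipogenic cells also express Igf1, and their marker sums were higher in the same libraries, as given above; their part was not tested.

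Over the 24 tested genes of the 3 downstream lists, 4 were called in the p38α KO (16.7%) and 5 in the double knockout (20.8%), against 17.8% and 25.6% of all genes. Of 10 cap-binding factors and 4E-BP paralogues, 3 fell and 0 rose in each knockout: Larp1 and Eif4g1 in both, Eif4ebp2 in the single and Eif4g3 in the double one. With the replicate number as a block, Eif4g1 and Eif4g3 were lost in the double knockout (adjusted p = 0.0729 and 0.0583). Leaving out 1 library lost Eif4g1 in 7 of 9 fits in the single knockout (adjusted p up to 0.121) and in 6 of 9 in the double (up to 0.126), and quantile normalisation lost it in both. Eif4g3 lost its call in the double knockout in 7 of 9 such fits (up to 0.112) and after quantile normalisation. Larp1, which holds back mRNAs of the translation machinery until mTORC1 is active, measured 239.8 ± 9.70 in the control and fell to 168.1 ± 22.9 and 186.4 ± 5.64 in the single and double knockout (log2 −0.52 and −0.36, limma adjusted p = 0.0104 and 0.0301). The first call was lost without control 3 (0.0515), the second without any 1 of the controls or p38α/γ KO libraries and after quantile normalisation. Among 7 S6 kinase genes and targets, Eif4b, an initiation factor, fell in the p38α KO (adjusted p = 0.0433, lost in 7 of 9 fits with 1 library left out and kept without p38α KO 1 or 3), and Poldip3, the S6 kinase partner SKAR, rose in the p38α/γ KO (log2 0.50, adjusted p = 0.0156, lost without control 1, p38α/γ KO 2 or p38α/γ KO 3). Of 7 other subunits of the mTOR complexes and their assembly factors, 1 fell in the p38α KO (Tti1), where 17.8% of all genes were called. That call was lost in 6 of 9 fits with 1 library left out (adjusted p up to 0.120). In the double knockout 1 of the 7 rose (Telo2) and 2 fell (Tti1 and Mapkap1), where 25.6% of all genes were called. Mapkap1 lost its call in 5 of 9 fits with 1 library left out (adjusted p up to 0.0716). The assembly factor Tti1 fell in the p38α/γ KO (log2 −0.63, adjusted p = 0.0163, lost without control 2, control 3, p38α/γ KO 2 or p38α/γ KO 3) and its partner Telo2 rose (log2 0.53, adjusted p = 0.0393; with the replicate number as a block 0.0585, and lost without any library but p38α KO 1 or 3). The 4 TSC and Rheb partners gave no limma call in either comparison, and of 7 other mTORC1 outputs such as the autophagy kinase gene Ulk1, 1, the hypoxia factor gene Hif1a, fell in the p38α/γ KO. The Hif1a call was lost in 4 of 9 fits with 1 library left out (adjusted p up to 0.0718).

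**Figure D4:**
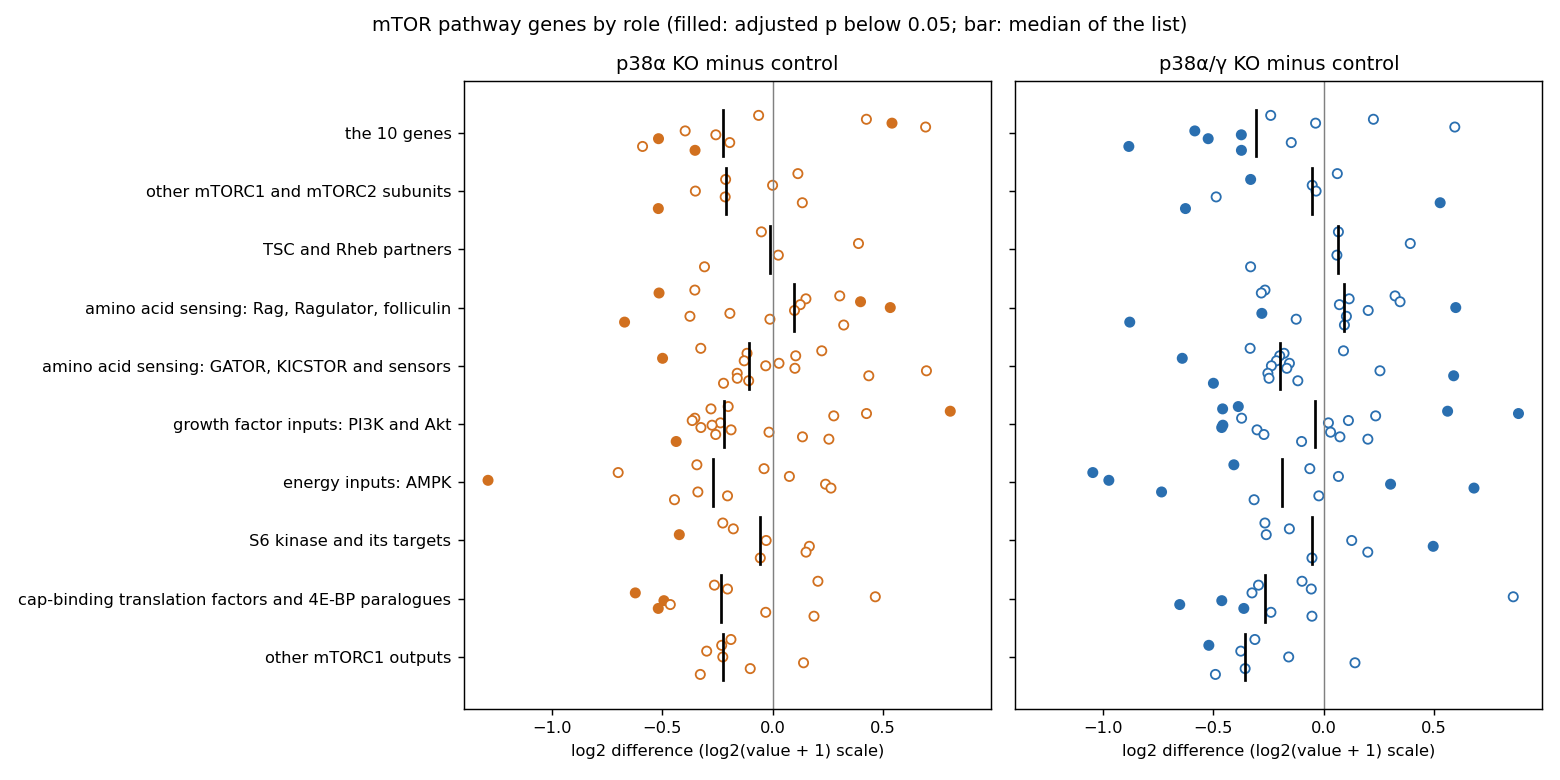
Difference from control on the log2(value + 1) scale (horizontal axis) of each tested pathway gene by role, in the p38α KO (left) and the p38α/γ KO (right); filled points have an adjusted p below 0.05 and the black bar is the median of the list. The lowest points are Prkab2 at −1.29 on the left and Prkaa2 at −1.05 on the right, both in the AMPK list.

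For the 3 members with the lowest adjusted p, the genes of most similar pattern were sought among 11908 named genes, by the root mean square distance between centred log2(value + 1) over the 9 libraries. Among the 3 nearest to Rps6kb1 were Eif5 (distance 0.0636) and Zkscan5 (0.0743), against a median distance over all genes of 0.319 and a spread of Rps6kb1 itself of 0.262. Eif5, which encodes a translation initiation factor, measured 192.3 ± 8.34, 134.3 ± 11.6 and 140.5 ± 3.19. Nearest to Tsc1 were Sec23a (0.0520), Lypla1 (0.0542) and Cse1l (0.0566), of which Sec23a, a coat protein gene of vesicles leaving the endoplasmic reticulum, measured 101.0 ± 1.96, 66.3 ± 17.1 and 53.8 ± 6.25. Nearest to Mtor were Zfp868 (0.0612), Mtmr4 (0.0662) and Herc1 (0.0675). This is a likeness of values over the same libraries, picked from all of these genes, and carries no test.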

How the data were processed

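Polyadenylated RNA of 9 gastrocnemius libraries was read as 51-base single reads from a directional kit, per the labels' protocols. Per the submitters' processing notes, the tools were RSEM 1.3.1, cutadapt, CASAVA 1.8 and limma, and the build GRCm38, with no order or role given. The authors deposited 1 signal value per gene and library, named as normalised counts; their scaling and filter are not given in the sources used here. All values were odd multiples of the smallest value of their library, to within 0.001 reads, which gave the inferred depths; they were not tested as counts.

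The tests used limma 3.58.1 (R 4.3.3) on log2(value + 1) of the 13137 genes that reached 1 in 3 or more libraries, with all 9 libraries in the fit, empirical Bayes with a trend, and Benjamini-Hochberg adjustment within each comparison. Fold changes of low genes are understated on this scale. Alternatives changed the filter, pseudocount, scaling, trend and libraries, added the replicate number as a block, and left out each library in turn, which can leave a group with 2. The block was fitted over all 9 libraries, so its replicate effects were shared by all groups, the p38α KO included. Deviations of same-numbered libraries correlated at 0.111, 0.124 and 0.148 for the p38α/γ KO and control. Differently numbered libraries reached 0.175 for p38α KO 2 and control 1, and 0.351 for p38α KO 2 and p38α/γ KO 1. The same-numbered values therefore do not show a pairing, and no label states one. The block kept the calls of all 5 members in the p38α/γ KO. Tables were made with pandas 2.3.3 and numpy 2.4.6 in Python 3.11.15 and drawn with matplotlib 3.10.9.

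Coordinates and exon lengths came from GENCODE M21 (GRCm38), which held 13172 of the identifiers, and promoters from RefSeq. The 10 genes, the lists and the motifs were chosen with earlier results of these data known. Other pathway genes were named as up to 5 with the lowest p among those called in each direction and comparison, beside paralogues and overlapping genes of the 10. The test was checked on simulated data. Some genes that met these rules are not reported here.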

Additional observations from a re-analysis of the deposited data

How the results depend on the processing

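Of 540 alternative values of single genes among the 10, 501 kept their side of the threshold, 28 lost the call and 11 gained it; no call reversed. Most of the 540 belong to genes not called in that comparison with all 9 libraries, so the 501 largely describe uncalled genes staying uncalled. Out of 18 fits per call, losses for the single knockout numbered 1 (Rps6kb1), 4 (Deptor) and 6 (Tsc2). Losses for the double knockout numbered 0 (Rps6kb1), 2 (Tsc1), 4 (Mtor), 5 (Rheb) and 6 (Tsc2). The number of the 10 genes called, 3 in the p38α KO, ranged from 1 to 5 with 1 library left out. In the p38α/γ KO it was 5 and ranged from 1 to 7. Between the knockouts it was 0 and ranged from 0 to 3. Genes called among all tested numbered 2332, 3368 and 58, and ranged from 801 to 3241, from 844 to 5346 and from 13 to 1862 with 1 library left out. With the 6 libraries of a comparison alone they numbered 1379, 5478 and 22. With the replicate block, 1 of the 10 genes was called in the p38α KO (Rps6kb1, adjusted p = 0.0283; Tsc2 0.0623, Deptor 0.0535), and 32 genes in all differed between the knockouts. Same-numbered libraries of the p38α KO and control correlated at −0.0858, −0.0866 and 0.0951. Those of the knockouts correlated at −0.331, −0.228 and 0.0885. These values give no sign of a pairing. The block was still fitted over all groups, so its adjusted p-values in every comparison rest on replicate effects shared with the p38α KO. The cause of the changes in calls was not tested. The design of 3 against 3 limits precision: intervals were widest for Ddit4 and Eif4ebp1.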
